A study of Rattus norvegicus with 6 samples.

Results

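The genes described here lie around Rffl on rat chromosome 10, the chromosome from which the congenic strain carries Lewis DNA. A set of 43 genes was chosen by position, with Rffl and the chemokine genes left out, and every probe set that the array annotation assigns to exactly 1 of them was taken. That gave 59 of the 31042 probe sets tested, for 36 of the 43 genes; Rad51d, Slfn3, Slfn13, Cct6b, Pigw, Myo19 and Rnf135 had no such probe set and were not measured. The RefSeq gene table of the GRCr8 assembly placed 42 of the 43 on chromosome 10, and Slfn13 had no entry there. It places Omg, Evi2a and Evi2b within the span of Nf1, while Lig3 overlaps the end of Rffl and Zfp830 overlaps Cct6b.

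Kidney RNA came from 6 male rats, each on its own Affymetrix array. The controls were 3 inbred Dahl salt-sensitive (S) rats, a strain that becomes hypertensive and proteinuric. The other 3 were S.LEW(10)x12x2x3x5 rats, in which Lewis (LEW) DNA replaces a stretch of chromosome 10 on the S background, so that both groups share the rest of the S genome as far as the labels state. All were born on the same day, weaned at 30 days, fed a diet with 0.3% salt and killed at 53 days. The labels do not give the ends of the Lewis piece, so which of the 43 genes are Lewis in the congenic rats was not analysed here. Of 10 markers of kidney tubule and glomerulus 9 were measured, at mean levels from 7.75 to 14.67 (log2 intensity). Among them Nphs1 and Slc12a3 were uneven among S rats (SD 1.61 and 1.53, n = 3). Their SD was 0.11 and 0.05 in congenic rats.

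A congenic segment can change gene expression in cis, when the transferred DNA carries a different regulatory or transcribed sequence, or in trans, when a product of the segment acts on genes elsewhere. Genes within the segment are therefore the first place to look for transcripts that differ between a congenic rat and its parent strain. Probes on a 3′ expression array are short, so a strain difference in the transcript under a probe can also alter its signal. Lewis and S sequences under the probes were not analysed here.

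In the congenic kidney 3 of the 59 probe sets rose and none fell at an adjusted p of 0.05 (limma, Benjamini-Hochberg over all 31042 probe sets). They belong to Adap2, Myo1d and Ap2b1. The share of 5.08% lay beside 6.00% of all probe sets (1862 of 31042) and 5.68% of the other 1674 probe sets on chromosome 10. Among higher calls the shares were 5.08% here, 3.47% over all probe sets and 3.58% over those 1674. The 1674 include probe sets of genes that lie between the chosen ones. At an unadjusted p of 0.05, 15 of the 59 passed (25.4%), as did 25.4% of all probe sets and 28.2% of the others on chromosome 10. The groups did not overlap in 14 of the 59 (23.7%), against 31.2% overall. The counts for genes around Rffl thus lay near the background of the array.

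A cis difference in transcription could lie near the start site of a gene. The regions around it are shown for 2 of the 3 genes with a probe set that rose, so that the reference sequence can be read. They run from 250 bases before to 50 bases after the start in RefSeq (GRCr8, the BN rat, plus strand), at chr10:65635740-65636039 for Adap2 and chr10:68600473-68600772 for Ap2b1. Capitals mark exact matches to promoter motifs on either strand. The letters searched were TATAAA for the TATA box, GGGCGG for the GC box, and for the CCAAT box those of its name.
Adap2: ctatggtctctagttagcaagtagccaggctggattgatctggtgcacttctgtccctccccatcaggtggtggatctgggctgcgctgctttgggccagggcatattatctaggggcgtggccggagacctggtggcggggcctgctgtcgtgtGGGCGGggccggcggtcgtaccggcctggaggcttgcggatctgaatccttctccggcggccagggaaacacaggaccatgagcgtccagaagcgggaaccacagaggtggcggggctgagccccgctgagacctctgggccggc
Ap2b1: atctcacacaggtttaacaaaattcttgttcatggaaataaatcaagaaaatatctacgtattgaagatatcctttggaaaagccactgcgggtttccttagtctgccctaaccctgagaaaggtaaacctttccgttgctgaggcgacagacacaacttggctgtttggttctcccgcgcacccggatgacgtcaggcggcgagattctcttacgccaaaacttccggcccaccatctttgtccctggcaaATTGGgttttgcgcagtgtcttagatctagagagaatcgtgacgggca
The Adap2 window held 1 GC box and 18 CpG dinucleotides at a GC content of 65%. That of Ap2b1 held 15 CpG dinucleotides at 47.3% and the letters of the CCAAT box in reverse, within the 50 bases after the start. Neither had a TATA box. Windows were found for 34 of the 43 genes, 39 in all because some genes have several. Myo1d had none. A GC box was in 23 of these 39 (59%) and in 33.1% of 33469 rat promoter windows of the same length, a CCAAT box in 17 (43.6%) against 37.5%, and a TATA box in 5 (12.8%) against 14.2%. The median window of these genes had 20 CpG dinucleotides, against 7 over all windows. These matches describe the letters of the reference only.

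Most differences around Rffl were small, as over the whole array. The log2 difference, congenic minus S, had a median of 0.03 over the 59 probe sets, against -0.02 over all and -0.02 over the others on chromosome 10. It ran from -0.30 at Zfp207 to 0.96 at Myo1d. For 53 of the 59 (89.8%, against 90.6% of all probe sets) the 95% interval lay within a 1.5-fold change in either direction. The 6 whose interval reached beyond it were the called probe sets of Adap2, Myo1d and Ap2b1 and uncalled ones of Synrg, Utp6 and Evi2b, all on the higher side. Taken without sign, the median log2 difference was 0.11, against 0.10 over all probe sets. The difference itself was 1.5-fold or more in 3 of the 59 (5.08%), against 2.95% of all probe sets and 2.99% of the others on chromosome 10. The 5 probe sets of the measured genes nearest to Rffl (Zfp830, Lig3, Nle1 and Unc45b) lay between -0.15 and 0.08, and each had its interval within that bound. Along the chromosome Ap2b1 was measured gene 7 from Rffl on one side, and Myo1d and Adap2 were measured genes 10 and 17 on the other.

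Membrane traffic genes are taken first, since the series concerns endosomal recycling. Adap2 encodes a GTPase-activating protein for Arf6, a small GTPase of the recycling pathway, and was measured by 1 probe set. Its log2 intensity was 9.31, 9.10 and 9.11 in S rats 1 to 3 and 9.87, 9.56 and 9.58 in congenic rats 1 to 3. Every congenic rat lay above every S rat, with congenic rat 1 the highest. The means were 9.17 ± 0.12 and 9.67 ± 0.17 (SD, n = 3), a difference of 0.50 ± 0.10 (SE) or 1.41-fold with a 95% interval of 1.20 to 1.66 (limma, adjusted p = 0.0341). The value moved little when single rats were left out (0.40 to 0.57), but the call held only without S rat 1.

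Ap2b1 encodes the beta subunit of AP-2, the adaptor that links cargo to clathrin at the plasma membrane, and its 2 probe sets differed. The dimmer, of an identifier type (a_at) that Affymetrix gives to probe sets for several transcripts of 1 gene, read 7.72, 7.11 and 7.70 in the S rats and 8.06, 8.26 and 8.34 in the congenic rats. S rat 2 lay well below the other two, and the groups did not overlap. The difference was 0.71 ± 0.16 (SE), 1.64-fold with an interval of 1.27 to 2.10 (limma, adjusted p = 0.0420). The brighter probe set read 11.16, 11.30 and 11.19 in S rats and 11.09, 11.13 and 11.15 in congenic rats. Its difference was -0.09 ± 0.07 (SE, adjusted p = 0.45), with an interval from -0.24 to 0.06 that excludes the rise of the dimmer one.

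Synrg encodes gamma-synergin, a partner of the AP-1 adaptor at the trans-Golgi network, and showed a similar split without passing the test. Its dimmer probe set read 6.40, 5.86 and 6.33 in S rats and 6.54, 6.90 and 7.14 in congenic rats, again with S rat 2 the lowest and no overlap. The means were 6.20 ± 0.29 and 6.86 ± 0.30 (SD, n = 3) and the difference 0.67 ± 0.18 (SE, interval 0.26 to 1.07, adjusted p = 0.0602). The brighter one stood at -0.11 (adjusted p = 0.40). Outside the region, none of 9 measured partners of AP-2 passed at its brightest probe set (median 0.05), among them Dab2, an adaptor of the proximal tubule, at 0.42 (adjusted p = 0.13). Of their 17 probe sets 1 passed, where 6.00% of all probe sets did. It was a dimmer one of the endocytic adaptor Eps15 at 0.46 (adjusted p = 0.0331). Of 14 measured Arf GTPases and their regulators 1 rose at the brightest probe set, the GTPase Arf6 at 0.77 ± 0.14 (SE, adjusted p = 0.0267), and 13 did not pass. Over the array 4.79% of 14217 genes were called at the brightest probe set, 2.12% higher and 2.67% lower, with a median of -0.03, beside a median of -0.06 for the Arf list. Of the 27 probe sets of that list 2 passed, also beside 6.00% of all probe sets. The other was a dimmer one of Cyth1, an Arf exchange factor, at 0.45 (adjusted p = 0.0408).

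**Figure D1:**
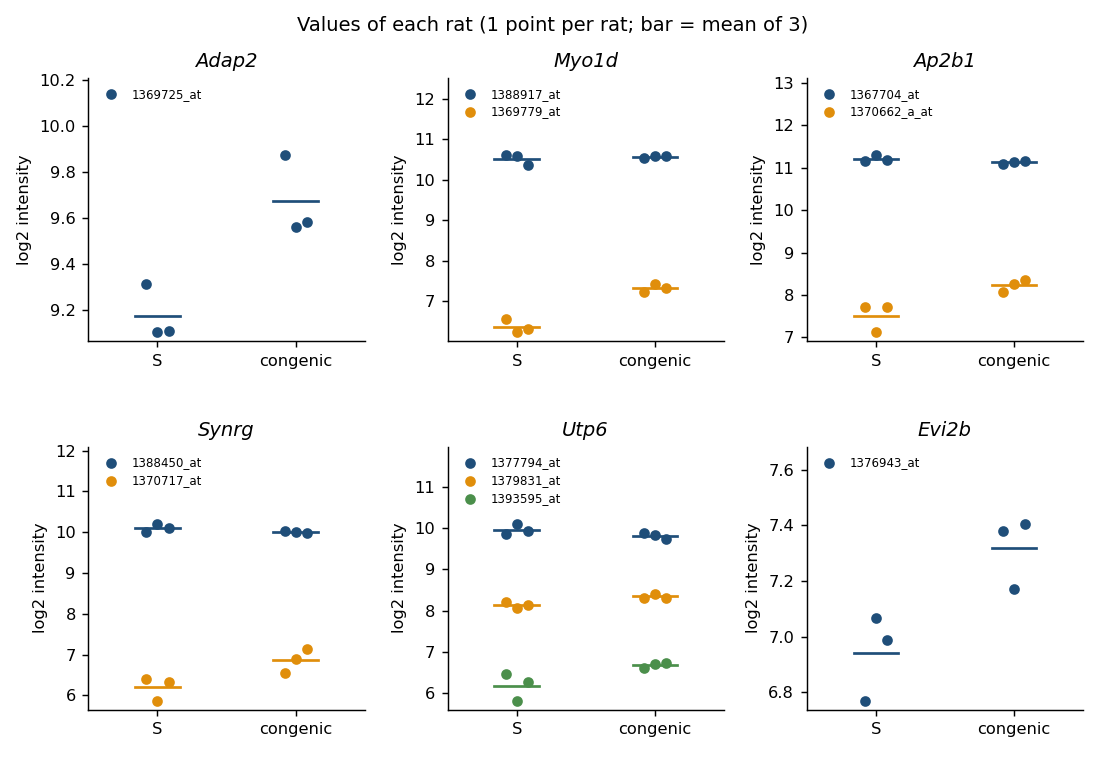
Log2 intensity of each rat (y axis, 1 point per rat, bar for the mean of 3) in S rats and congenic kidneys for all probe sets of Adap2, Myo1d, Ap2b1, Synrg, Utp6 and Evi2b, with colours for the probe sets of a gene. In Myo1d, Ap2b1, Synrg and Utp6 the brightest probe set differs by -0.14 to 0.05 between the groups, and in each congenic rat the dimmest lies above all S rats.

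Among motor proteins, Myo1d encodes a class I myosin that ties membranes to actin filaments. Its dimmer probe set read 6.56, 6.23 and 6.31 in S rats and 7.23, 7.43 and 7.33 in congenic rats. The gap between the groups was wider than the range within either. The means were 6.37 ± 0.17 and 7.33 ± 0.10 (SD, n = 3), and the difference of 0.96 ± 0.10 (SE) is 1.95-fold with an interval of 1.67 to 2.28 (limma, adjusted p = 0.00978). This was the largest difference among the 59. The brighter Myo1d probe set read 10.61, 10.57 and 10.37 in S rats and 10.55, 10.59 and 10.58 in congenic rats. Its difference was 0.05 ± 0.08 (SE, interval -0.12 to 0.23, adjusted p = 0.73), so the signal that changed was that of 1 probe set and not of both. The representative sequence of the dimmer probe set is a RefSeq transcript, as is that of Adap2. For Ap2b1 this holds for the brighter probe set and not for the dimmer one that rose.

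The groups also differed in RNA quality, and this bears on several of these values. The 3′ minus 5′ difference of the beta-actin and Gapdh control probe sets, which widens when RNA is broken, was 1.56, 2.10 and 1.70 in S rats and 1.26, 1.01 and 1.08 in congenic rats. S rat 2 was the lowest or highest of the 6 in 31 of the 59 probe sets (52.5%) and in 55.3% of all. With this difference as a term in the model no probe set of the array passed (limma), and 6 of the 59 (10.2%) and 7.38% of all had an unadjusted p under 0.05. The Myo1d value shrank from 0.96 to 0.59 ± 0.14 (SE, unadjusted p = 0.00373, adjusted p = 0.46), and Adap2 stayed at 0.49 with a wider error (± 0.22, SE, adjusted p = 0.70). The dimmer probe sets of Ap2b1, Synrg and Utp6 fell to -0.07, -0.12 and -0.21, with adjusted p of 0.97, 0.97 and 0.85. Outside the region Arf6 shrank from 0.77 to 0.21 and Dab2 turned from 0.42 to -0.30 (adjusted p = 0.91 and 0.80). The median of the Arf list turned from -0.06 to 0.09, and that of the AP-2 partners stayed near 0 (0.05 and 0.04). The term separates the groups, so strain and RNA quality cannot be fully told apart with 6 rats.

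**Figure D2:**
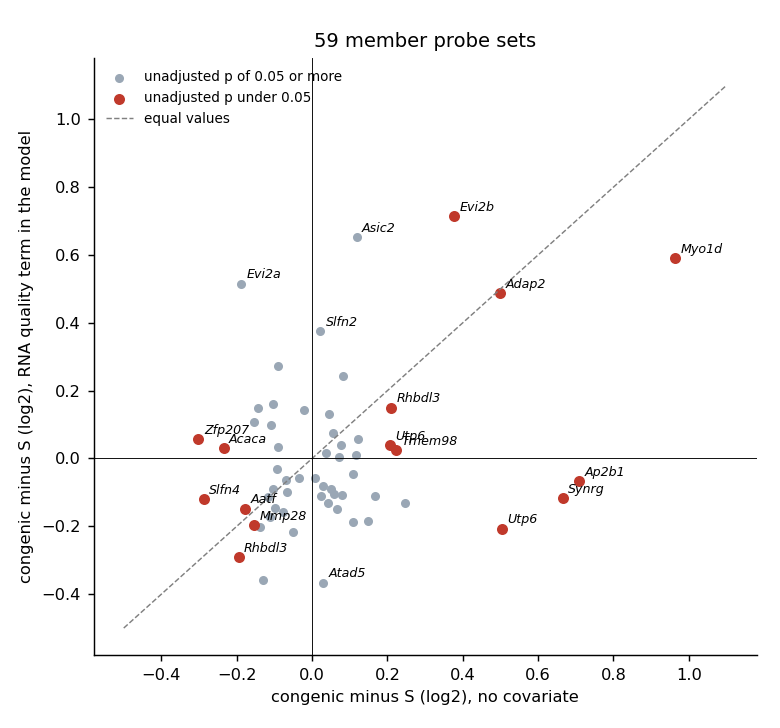
Log2 difference (congenic minus S) of the 59 probe sets without a covariate (x axis) and with the RNA quality term (y axis); red points had an unadjusted p under 0.05 without it, and the dashed line marks equal values. Adap2 lies on the line, Myo1d keeps 0.59 of 0.96, and Ap2b1, Synrg and the dimmest probe set of Utp6 drop below 0.

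Of the genes best known from blood cells, Evi2b, a membrane protein, read 6.77, 7.07 and 6.99 in S rats and 7.38, 7.17 and 7.41 in congenic rats, with no overlap. The difference was 0.38 ± 0.10 (SE, interval 0.15 to 0.60) and missed the threshold (adjusted p = 0.0583). Its neighbour Evi2a, which also lies within the span of Nf1, read 8.46, 8.99 and 8.62 in S rats and 8.67, 8.25 and 8.59 in congenic rats, overlapping groups with a difference of -0.19 ± 0.15 (SE, adjusted p = 0.49). With the RNA quality term both were higher, at 0.71 and 0.52 (limma, unadjusted p = 0.00241 and 0.0157, adjusted p = 0.46 and 0.55).

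The Schlafen genes control growth of lymphocytes and are induced by interferon. Slfn4 read 10.23, 10.49 and 10.48 in S rats and 10.0, 10.01 and 10.33 in congenic rats at its brighter probe set. The groups overlapped through congenic rat 3, and the difference of -0.29 ± 0.11 (SE) did not pass (adjusted p = 0.15). A dim probe set of Slfn4 stood at 0.05 and Slfn2 at 0.02 (adjusted p = 0.74 and 0.92). With the RNA quality term Slfn2 stood at 0.38 (adjusted p = 0.54), and the probe sets of Slfn4 at -0.12 and -0.09. Schlafen genes resemble each other, and whether these probes tell them apart was not checked. Of 23 leukocyte markers 21 were measured and 3 rose at the brightest probe set, C1qa (0.42), C1qb (0.46) and Coro1a (0.38). Over all genes 2.12% were called higher. Of the 25 probe sets of the list 5 passed, where 6.00% of all probe sets did. The others were dimmer ones of Ptprc at 0.84 and Laptm5 at 0.41 (limma, adjusted p = 0.00596 and 0.0235). With the RNA quality term these stood at 0.72 and 0.38 (adjusted p = 0.45 and 0.61). The list median was 0.11, against -0.03 over all genes, and 0.45 against 0.01 with the RNA quality term. Their summed linear intensity ran from 12640 to 15562 in S rats and from 14848 to 16526 in congenic rats. Their part in the values of Adap2 and Evi2b was not tested, and in whole kidney more cells of a type and more RNA per cell cannot be told apart.

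Around Rffl, no gene of RAS signalling passed. Nf1 encodes neurofibromin, which switches RAS off, and stood at -0.09 ± 0.12 (SE, interval -0.37 to 0.19) from 6.73 ± 0.24 in S to 6.64 ± 0.12 in congenic rats (SD, n = 3). The RNA quality term turned it to 0.27 (adjusted p = 0.88). Rasl10b, a RAS-like GTPase, had 3 probe sets at 0.04, 0.12 and -0.13 with adjusted p of 0.47 or above. Among genes of RAS regulation elsewhere, 6 of 13 were measured and none passed at the brightest probe set (median -0.0007). Rasa1, another RAS-inactivating protein, was at 0.31 (adjusted p = 0.0653), and Sos2, a RAS activator, at -0.29 (adjusted p = 0.0549). They stood at 0.09 and -0.05 with the RNA quality term. Of the 10 probe sets of that list 1 passed, where 6.00% of all probe sets did. It was a dimmer one of Nras at 0.41 (adjusted p = 0.0435), and it stood at 0.05 with the term. Omg, a myelin glycoprotein gene within the span of Nf1, stood at 0.11, and 4 measured markers of myelinated nerve lay between -0.04 and 0.07.

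Among ribosome and RNA genes Utp6 showed a split like that of Ap2b1 and Synrg. It belongs to the complex that processes the small ribosomal subunit RNA, and its 3 probe sets spread from -0.14 to 0.50 in reverse order of brightness. The dimmest read 6.47, 5.82 and 6.27 in S rats and 6.61, 6.71 and 6.74 in congenic rats, a difference of 0.50 ± 0.15 (SE, interval 0.17 to 0.84, adjusted p = 0.0765). The middle one read 8.20, 8.06 and 8.14 against 8.31, 8.40 and 8.31, a difference of 0.21 ± 0.07 (SE, adjusted p = 0.10). In both the groups did not overlap and S rat 2 was the lowest. The brightest read 9.85, 10.10 and 9.92 against 9.88, 9.84 and 9.72, where S rat 2 was the highest. Its difference turned from -0.14 to 0.15 with the RNA quality term (adjusted p = 0.90). Ddx52, an RNA helicase, stood at 0.17 and -0.12, Nle1, a factor for the large ribosomal subunit, at -0.11, and Mrm1, which methylates mitochondrial ribosomal RNA, at -0.10 and -0.08, none called.

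Without the RNA quality term, dimmer probe sets were more often higher than the brightest ones, around Rffl and over the whole array. Of the 36 brightest probe sets 16 were higher and 20 lower, with a median of -0.06. The 23 dimmer probe sets of the same genes had 17 higher (73.9%) and a median of 0.08. Over the whole array 60.1% of dimmer probe sets were higher (median 0.04), and 40.6% of the brightest (median -0.03). With the RNA quality term the medians of the dimmer probe sets turned to -0.09 around Rffl and -0.02 over the array, and those of the brightest were -0.04 and 0.01. Of the 59 probe sets 27 had the opposite sign with the term. Of the 17 genes around Rffl with several probe sets, 12 had them on both sides of 0. Counted by the brightest probe set, 1 of the 36 genes was called (2.78%, against 4.79% of 14217 genes), namely Adap2. At an unadjusted p under 0.05 it was 8 of the 36 (22.2%), against 25.6% of all genes. In 8 of the 59 the mean level was below 5.88, the lowest of the arrays' lower quartiles, where signal is near background; no detection call was used.

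**Figure D3:**
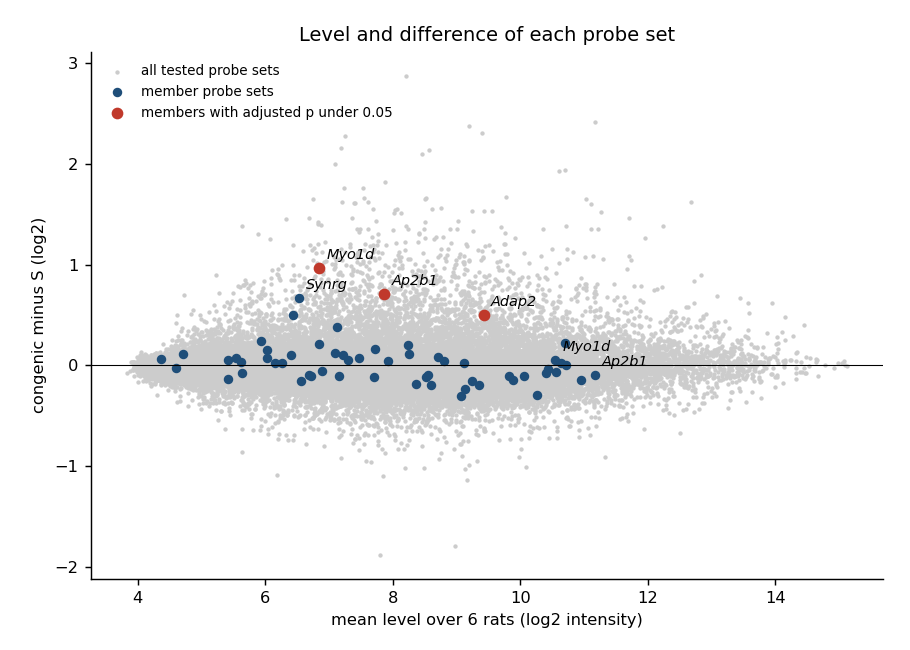
Mean log2 intensity over 6 rats (x axis) against the log2 difference, congenic minus S (y axis), for all 31042 tested probe sets (grey), the 59 around Rffl (blue) and the 3 of these with an adjusted p under 0.05 (red). Both brighter probe sets of Myo1d and Ap2b1 lie near 0 at levels of 10.54 and 11.17, and their dimmer ones at 6.85 and 7.87 lie at 0.96 and 0.71.

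None of the chromatin and transcription genes passed. Suz12, a core subunit of the Polycomb complex PRC2 that methylates histone H3, was at 9.87 ± 0.13 in S rats and 9.76 ± 0.08 in congenic rats (SD, n = 3; -0.10, interval -0.29 to 0.09). Of its 9 measured partners 1 fell, Jarid2 (-0.39 ± 0.07 SE, adjusted p = 0.0306, and -0.48 with the term, adjusted p = 0.54), and the median was -0.19, against -0.03 over all genes, of which 2.67% were called lower. That median was -0.01 with the RNA quality term. Of the 21 probe sets of the list 4 passed, 2 of Jarid2 and 2 of Mtf2 in opposite directions (0.30 and -0.38). Aatf, a regulator of transcription and cell survival, read 8.49, 8.44 and 8.44 in S rats and 8.37, 8.21 and 8.25 in congenic rats, without overlap. Its difference was -0.18 ± 0.07 (SE, adjusted p = 0.14). Taf15, an RNA-binding transcription factor subunit, stood at -0.09, and Tada2a, an adaptor of histone acetyltransferases, at -0.10.

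Zfp207, which helps chromosomes align on the spindle, had the lowest of the 59 differences. Its second probe set by brightness read 8.99, 9.34 and 9.33 in S rats and 9.03, 8.88 and 8.85 in congenic rats. S rat 1 lay among the congenic rats, and the difference of -0.30 ± 0.11 (SE) did not pass (adjusted p = 0.12). It was 0.06 with the RNA quality term. The brightest probe set of Zfp207 stood at -0.03 with an interval from -0.18 to 0.11, and the dimmest at -0.02 (adjusted p = 0.90). Genome maintenance genes did not pass. Lig3, a DNA ligase next to Rffl, was at -0.15 and 0.06 (adjusted p = 0.31 and 0.74), and the 3 probe sets of Atad5, which unloads the replication clamp, lay between 0.03 and 0.15. Those of Atad5 lay between -0.37 and -0.15 with the RNA quality term, the lowest at an adjusted p of 0.67.

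Acaca encodes acetyl-CoA carboxylase 1, which makes the malonyl-CoA for fatty acid synthesis. Its brighter probe set read 9.11, 9.31 and 9.31 in S rats and 9.14, 8.92 and 8.97 in congenic rats. The groups overlapped through S rat 1 and congenic rat 1, and the difference was -0.24 ± 0.09 (SE, interval -0.43 to -0.04, adjusted p = 0.14). It was 0.03 with the RNA quality term. The dimmer probe set stood at 0.08 (adjusted p = 0.51). Of 11 measured genes of fatty acid synthesis elsewhere in the genome 2 fell, Me1, the cytosolic malic enzyme (-0.39, adjusted p = 0.0292), and Elovl6, a fatty acid elongase (-0.28, adjusted p = 0.0485), and 9 did not pass, where 2.67% of all genes were called lower. The list median was -0.18 (-0.19 with the RNA quality term), against -0.03 over all genes. Of its 20 probe sets 4 passed, a second of Elovl6 (-0.27) and a dim one of Scd2, a fatty acid desaturase, at 0.95 among them. With the RNA quality term Me1 stood at -0.17 and Elovl6 at -0.41 (adjusted p = 0.86 and 0.54). Dhrs11, a short-chain dehydrogenase, did not pass (-0.07, interval -0.22 to 0.08).

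The proteasome gene Psmd11, a lid subunit of the 19S particle, had 3 probe sets at -0.14, 0.03 and 0.04, the first without overlap between groups (adjusted p = 0.26). None of 16 measured 19S partners passed (median -0.04). Ggnbp2, which encodes a gametogenetin-binding protein, was at 0.0087 and -0.07, the former with an interval from -0.15 to 0.17. Crlf3, a cytokine receptor-like factor, stood at 0.05, Zfp830 at 0.08 and Unc45b, a myosin chaperone of muscle, at 0.07.

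Genes of the cell surface and of neurons held smaller shifts. Tmem98, a membrane protein gene, read 10.76, 10.52 and 10.50 in S rats and 10.80, 10.83 and 10.82 in congenic rats. The groups did not overlap, although S rat 1 lay just below the congenic rats, and the difference was 0.22 ± 0.08 (SE, adjusted p = 0.13). It was 0.02 with the RNA quality term. Rhbdl3, a rhomboid-like protein gene, read 9.40, 9.41 and 9.54 in S rats and 9.20, 9.35 and 9.22 in congenic rats at its brightest probe set, a difference of -0.20 ± 0.07 (SE, adjusted p = 0.14). A dimmer one read 6.62, 6.72 and 6.87 against 6.84, 7.04 and 6.96, which is 0.21 ± 0.09 (SE, adjusted p = 0.18) in the opposite direction. The dimmest stood at 0.12 (adjusted p = 0.36). Mmp28, a secreted metalloproteinase, read 6.62, 6.59 and 6.70 against 6.52, 6.53 and 6.41, a difference of -0.15 ± 0.07 (SE, adjusted p = 0.20).

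Asic2, an acid-sensing sodium channel, stood at 0.12 and 0.25 (adjusted p = 0.66 and 0.21), and its brighter probe set at 0.65 with the RNA quality term (unadjusted p = 0.0138, adjusted p = 0.54). Cdk5r1, the activator of the kinase CDK5, was at 0.08 from a low level of 5.50 in S. Tmem132e was at -0.05 and 0.11, and Spaca3, a sperm protein gene, at 0.02 (adjusted p = 0.92).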

How the data were processed

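The deposited table holds 1 log2 intensity per probe set and array, for 31099 probe sets of the Affymetrix Rat Expression Array 230 2.0. That the authors' values are log2 and comparable between arrays was judged from the values: array medians ran from 7.47 to 7.50. The software that made them is not given in the sources used here. Columns were matched to rats by the labels, and the 57 Affymetrix controls were not tested. Gene symbols came from the platform annotation. The table names no genome build, so GRCr8 was used for gene order and the printed promoter windows only.

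The contrast of congenic and S rats was fitted in R 4.3.3 using limma 3.58.1, with lmFit and a two-sided eBayes test, with p-values adjusted over 31042 probe sets by the Benjamini-Hochberg method, and 8.49 total degrees of freedom. The fit was tested on simulated data with independent normal noise and known changes. Those data held no RNA quality difference and no effect shared by the probe sets of an array, so the test cannot speak to either. Array values have no read depth, and 3 rats per group limit the precision. Figures used matplotlib 3.10.9.

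Genes and lists were chosen with earlier results of these data known. Values by rat were given for probe sets with an unadjusted p under 0.05, for the brightest ones of Ap2b1, Myo1d and Utp6, and for Evi2a; other probe sets were given by their difference. Lists were described by the brightest probe set of each gene, without a list test. Alternatives are given in the closing section.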

Additional observations from a re-analysis of the deposited data

How the results depend on the processing

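For the genes around Rffl, the 3 calls of Adap2, Myo1d and Ap2b1 also passed under quantile normalization, median centring, an intensity trend (which added Synrg) and robust eBayes. Without probe sets below percentile 40 of the mean level, 38 of the 59 were left and 2 were called, beside 1968 of 18625 on the array. The dimmer one of Myo1d was not among the 38, and their median was -0.042. With array weights 12 were called of 6077 on the whole array, and the median was -0.0080. With an unadjusted p under 0.05 as the rule, 15 passed, beside 7895 of 31042 on the array. The ordinary linear model called 0, with 9 of the 59 at an unadjusted p under 0.05. Its counts over the whole array are not given here. With the RNA quality term 0 of the 59 and 0 of all were called, with 6 and 2292 at an unadjusted p under 0.05, and the median was -0.059. Of the 59, 27 had the opposite sign with that term; among the 15 with an unadjusted p under 0.05 without it these were Utp6 (-0.21), Zfp207 (0.056), Ap2b1 (-0.067), Synrg (-0.12) and Acaca (0.030).

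Leaving out 1 rat gave 0 to 9 calls among the 59 and 0 to 4752 on the array, and a median from -9.96e-05 to 0.025. There were 9 calls without S rat 1, 2 without S rat 2 and 1 with congenic rat 1 left out. The whole array had 4752, 968 and 350 calls in these fits. Dropping S rat 3, congenic rat 2 or congenic rat 3 gave 0 calls among the 59, and 0, 0 and 8 on the array. Of the 59, 11, 7 and 8 then had an unadjusted p under 0.05 (limma). On the array 6968, 5575 and 5359 of 31042 did. The dimmer Myo1d probe set lay between 0.90 and 1.06 and lost its call without S rat 3, congenic rat 2 or congenic rat 3 (adjusted p from 0.0760 to 0.0787). That of Ap2b1 lay between 0.51 and 0.81 and held without S rat 1 or S rat 2. Adap2 lost its call except without S rat 1 (adjusted p up to 0.13).

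The labels number the rats 1 to 3 in both groups and the design text puts 1 rat of each strain in a cage, but no label ties a number to a cage. Deviations of rats with the same number correlated at -0.01, -0.18 and -0.14, so the numbers were not taken as pairs, and no rat correlated best with its own number. With the replicate block 658 probe sets of the array were called, and 2 of the 59, Adap2 and Myo1d; Ap2b1 missed the threshold (adjusted p = 0.0603).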
